A study of Mus musculus with 8 samples.

Results

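RNA-seq of natural killer (NK) cells was compared between the lungs of mice that lack *Ccl5-PE*, the proximal enhancer of the chemokine gene *Ccl5*, and the lungs of wild-type (WT) mice. The libraries were chosen by their labels: Lung_WT1 and Lung_WT2 form the WT group, Lung_KO1 and Lung_KO2 the KO group, 4 of the 8 libraries of the series. The other 4 are spleen NK cells of the same genotypes, and they enter here only as a comparison for the KO effect. All groups were C57/Bl6 mice, and all cells were sorted as CD45+ TCRb- NK1.1+, so both genotypes went through the same gate. KO mice were Ccl5ΔPE/ΔPE, in which a short stretch upstream of *Ccl5* had been removed in the germline from both alleles by CRISPR, so that every cell of the mouse, and not only its NK cells, carried the deletion. WT mice had the intact locus. Both genotypes were bred and housed as separate lines, so line and genotype cannot be told apart. By its methods the study used mice of both sexes up to adult age, and neither the labels nor the methods state if a group's 2 libraries are separate animals. The p-values therefore measure only the spread between libraries, which may be technical.

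CCL5, also called RANTES, is a chemokine that draws T cells, NK cells, monocytes and eosinophils through G protein-coupled receptors. Resting NK cells hold much *Ccl5* mRNA, and they release the protein quickly on activation. NK cells develop under IL-15, whose receptor shares its beta chain with that of IL-2. They kill with perforin and granzymes under the balance of activating and inhibitory receptors, and in the lung most of them are mature cells that circulate through the vessels.

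The WT libraries held 8444054 and 3992951 reads on genes and the KO libraries 4783978 and 7196662. Levels are given as CPM, the reads of a gene scaled to a fixed library size, for WT library 1, WT library 2, KO library 1 and KO library 2 in this order. CPM does not correct for gene length, so levels of different genes are not compared. A gene was called higher or lower in KO when edgeR's quasi-likelihood test gave an adjusted p under 0.05 over the 12595 genes tested and the change was at least 1.5-fold. The words rose and fell are used only for such genes, and log2 fold changes of KO over WT are given ± an approximate standard error. It was calculated as the absolute log2 fold change divided by the square root of the test's F statistic. With this rule 3368 genes differed in lung, 2059 higher (16.3% of the genes tested) and 1309 lower (10.4%), so 61.1% of the calls were higher in KO. With scaling by library totals, 71.2% of them were. These shares are the background against which the counts of each gene group are read. The variance between the libraries of a group was 1.46 times (WT) and 1.20 times (KO) that of counting alone. In 76% of the genes tested the KO and WT libraries did not overlap.

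*Ccl5* itself was checked first. It was counted at 19518 and 18349.6 CPM in WT and 2992 and 3195 CPM in KO. Both KO libraries lay far below both WT libraries, which left 16.3% of the WT level. On the log2 scale the change was -2.61 ± 0.04 (edgeR adjusted p = 2.3e-35). The gene lies on the minus strand of chromosome 11 from 83525778 to 83530518 (GRCm38).

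Before the gene groups are described, the libraries were checked for RNA of other cells and for trends with base composition. All 10 NK markers were counted in each lung library. Their sum was 54136 and 52454 CPM in WT and 41702 and 42018 CPM in KO, and of the 10 only *Tbx21* and *Prf1* rose and none fell. T cell receptor constant transcripts, which NK cells also carry, were present in both genotypes, and 1 of 8 tested T cell genes, *Trac*, fell, from 23.5 and 21.8 to 9.62 and 10.5 CPM. The CD3 chain genes *Cd3d*, *Cd3e* and *Cd3g* stood between 6.35 and 22.5 CPM and were not called. *Cd8a* and *Cd5* stood at no more than 0.259 CPM, and *Cd4* had no reads in WT and stood at 1.02 and 0.952 CPM in KO. Among markers of other cells, 4 of the 6 tested lung epithelium genes, 5 of the 8 tested B cell genes, 3 of the 4 tested dendritic cell genes, 3 of the 4 tested red cell genes and 3 of the 7 tested endothelial genes were higher in KO. The summed level of the 11 epithelial markers was 262, 258, 369.7 and 407 CPM, and *Sftpc*, a surfactant protein of alveolar cells, was the largest part of it at 152 and 156 CPM in WT and 251 and 282 CPM in KO. *Scgb1a1*, a club cell protein, was lower in KO without being called, at 87.3 and 83.4 CPM in WT and 60.4 and 63.9 CPM in KO, and *Scgb3a2* fell from 6.09 and 3.89 to 2.46 and 2.58 CPM. Among the dendritic cell genes 1 of 4 was lower, and class II genes were higher, with *Cd74* at 36.2 and 33.4 CPM in WT and 106 and 96.1 CPM in KO. The B cell antigens *Ms4a1* and *Cd22* had no reads in WT and stood at most at 1.84 CPM in KO. *Igkc* stood higher in KO, at 2.36 and 2.33 CPM in WT and 13.5 and 15.4 CPM in KO. *Ighd* did too, at 2.49 and 3.63 CPM in WT and 6.35 and 5.31 CPM in KO. *Ighm*, most of the summed B cell level, stood lower in KO and was not called. It had 289 and 303 CPM in WT and 241 and 244 CPM in KO. The summed level of the 9 B cell markers was 301 and 314 CPM in WT and 269.8 and 275 CPM in KO. Of 4 tested macrophage genes *Lyz2* rose from 12.2 and 15.8 to 23.5 and 25.2 CPM, *Mrc1* fell from 2.24 and 2.85 to 0.205 and 0.272 CPM, and *Adgre1* had no reads in any lung library. Of 7 neutrophil markers 5 had no reads, and both tested ones fell, *Mmp9* from 2.36 and 1.81 to 0 and 0 CPM and *Ly6g* from 2.36 and 0 to 0 and 0.136 CPM, so that the level of *Ly6g* in WT came from 1 library. Of 3 tested platelet genes 2 were lower, and *Pf4* stood at 8.58 and 8.29 CPM in WT and 1.23 and 0.544 CPM in KO. The part of such cells in the differences between the genotypes was not tested. In bulk RNA, more cells of a type and more RNA per cell cannot be told apart. The KO effect in lung also rose with the GC content of a gene. In the fifth of genes with the lowest GC content 8.70% were higher and 17.4% lower in KO, and in the fifth with the highest 29.7% were higher and 5.33% lower. With an offset that removes the GC trend from each library, 1677 genes were higher and 1379 lower, and values with this offset are given beside the gene groups in which it moved a count by 2 genes or more and by over 1.5 times. The sign of the log2 fold change turned for *Cd3e* (0.0048 with library totals). Leaving out a library ended the call, with the log2 fold change then left in parentheses, for *Scgb3a2* (-1.11) without KO library 2, and *Scgb3a2* (-0.62) without WT library 1.

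Among the genes that rose most at a level of at least 20 CPM were regulators of signalling and of the cell cycle. *Socs1*, the inhibitor of the JAK kinases that cytokine receptors use, was counted at 5.22 and 7.25 CPM in WT and 25.0 and 27.2 CPM in KO and rose by 2.15 ± 0.17 on the log2 scale. It lies on chromosome 16 from 10782240 to 10785536. *Nr4a1*, the orphan nuclear receptor NUR77 that antigen and NK receptor signals induce, stood at 43.9 and 55.2 CPM in WT and 169 and 186 CPM in KO and rose by 1.90 ± 0.08. *Cebpb*, a transcription factor of inflammatory responses, stood at 6.46 and 5.44 CPM in WT and 26.6 and 21.5 CPM in KO. *H2afx*, which encodes the histone variant H2AX that marks broken DNA, was counted at 9.32 and 10.1 CPM in WT and 41.6 and 41.8 CPM in KO, and its libraries were tight in both groups. *Fancg*, a subunit of the Fanconi anaemia core complex, rose from 7.21 and 7.77 to 28.2 and 27.2 CPM, and *Fzr1*, the CDH1 activator of the anaphase-promoting complex, from 7.96 and 6.48 to 26.0 and 27.6 CPM. All of these genes had both KO libraries above both WT libraries, which was a condition for naming them. The remaining genes that rose most were *Junb* with 2.16 ± 0.07, the splicing factor gene *Sart3* with 2.13 ± 0.15, the corepressor gene *Cbfa2t3* with 2.09 ± 0.18, and *Atp13a1*, an ATPase of the endoplasmic reticulum, with 1.92 ± 0.12. *Gm11175*, with 1.98 ± 0.09, lies antisense to *Jund*, so reads of this pair cannot be told apart without strand. The transcript model *Gm37939* had 2.20 ± 0.20. The pseudogene *Gm1821* had 6.15 ± 0.44 in lung, and in spleen it stood at 1.998 and 47.7 CPM in WT and 2.29 and 2.80 CPM in KO, so that WT library 2 stood apart there. It is annotated as a processed pseudogene, which can share reads with its parent gene, so its counts are uncertain. The list also held a pair of genes of the lung lining. *Bpifb1*, a secreted protein of the airways, had 0 reads in both WT libraries and 111 and 153 reads in KO, at least 85.6-fold higher when WT is set to the floor of 3 reads over the group. *Sftpa1*, a surfactant protein, was counted at 13.2 and 12.2 CPM in WT and 44.6 and 48.3 CPM in KO. *Sftpa1* is one of the epithelial markers above.

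At a level of at least 20 CPM and with no overlap between the groups, the genes that fell most after *Ccl5* were *Ppbp*, *Clec2d* and *Ttc7b*. *Ppbp* encodes a platelet chemokine and fell by 1.90 ± 0.18 beside the platelet marker *Pf4*. *Clec2d*, which encodes Clr-b, the ligand of an inhibitory receptor of the NKR-P1 family, was counted at 42.5 and 48.2 CPM in WT and 15.1 and 10.1 CPM in KO, with -1.88 ± 0.14. *Il7r*, the alpha chain of the IL-7 receptor, stood at 44.3 and 44.8 CPM in WT and 16.2 and 17.7 CPM in KO, so that both WT libraries were alike and both KO libraries well below them (-1.38 ± 0.11). *Rab27b*, a GTPase of secretory vesicles, fell from 43.1 and 48.2 to 18.6 and 17.4 CPM (-1.33 ± 0.11). *Stk38l*, which encodes the kinase NDR2, fell by 1.69 ± 0.13. Genes of intracellular transport and of the cilium were among them too, with -1.47 ± 0.18 for the kinesin-2 subunit *Kifap3* and -1.35 ± 0.13 for the ciliary GTPase *Arl13b*. *Ttc7b*, a scaffold for a phosphatidylinositol 4-kinase, had -1.73 ± 0.14, and *Ric8b*, a chaperone of G protein alpha subunits, had -1.41 ± 0.18. *Rbm41* and *Cmtr2*, whose products bind and cap RNA, had -1.35 ± 0.16 and -1.29 ± 0.16. The other 3 of the 15, *Gm44164*, *2610044O15Rik8* and the non-coding *9330175E14Rik*, lay between -1.58 ± 0.17 and -1.29 ± 0.17.

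**Figure D1:**
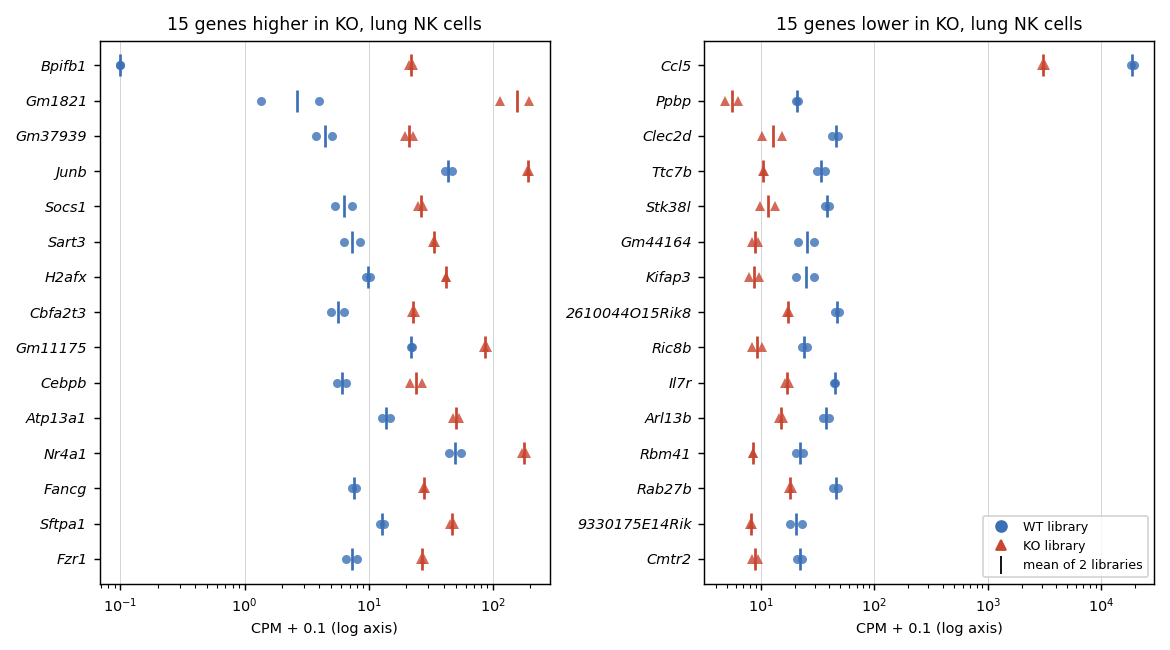
Levels in CPM plus 0.1 on a log axis of the 15 genes called higher (left) and the 15 called lower (right) in KO lung NK cells with the largest log2 fold changes at 20 CPM or more. Circles are WT libraries, triangles KO libraries and ticks the mean of 2 libraries, and the groups do not overlap in any of the genes, since this was a condition for naming them.

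The list with the largest share of genes higher in KO was that of mitosis and G2/M genes, which cells transcribe from a low level in G1 to a peak before they divide. Of 56 tested members 37 rose and 0 fell, against 16.3% and 10.4% of all genes. The median log2 fold change was 1.02, that of all genes tested 0.02. With the GC offset 38 rose, and with an assumed coefficient of variation of 0.2 between libraries 25 did. *Nusap1*, which bundles spindle microtubules, had 0 reads in both WT libraries and 60 and 93 in KO, or 12.3 and 12.7 CPM. *Ube2c*, the ubiquitin-conjugating enzyme of the anaphase-promoting complex, had 0 and 0 against 21 and 46 reads. *Anln*, which scaffolds the contractile ring, *Bub1*, the spindle checkpoint kinase, and *Ccnb1*, or cyclin B1, also had no reads in WT. They had between 12 and 37 reads in each KO library. Against the floor of 3 reads over the group these genes were at least 49.6-fold (*Nusap1*), 22.1-fold (*Anln*), 21.7-fold (*Ube2c*), 14.3-fold (*Bub1*) and 9.40-fold (*Ccnb1*) higher. With the 6 members that had no reads in WT set at these bounds, the median of the list was still 1.02.

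Other members were counted in both genotypes, some of them with few reads in WT. These were picked after their values were seen. *Aurkb*, the Aurora kinase of the chromosomal passenger complex, was counted at 0.870 and 0.259 CPM in WT and 8.19 and 6.12 CPM in KO. The value of WT library 2 lay below the floor of 3 reads, about 0.751 CPM there. *Tpx2*, the activator of Aurora A, stood at 1.86 and 1.30 CPM in WT and 12.5 and 12.4 CPM in KO, and *Tacc3*, a spindle protein, at 11.9 and 9.33 CPM in WT and 25.6 and 25.2 CPM in KO. *Top2a*, topoisomerase II alpha, rose from 22.9 and 25.1 to 40.5 and 45.7 CPM (0.88 ± 0.11) and *Mki67*, which encodes the proliferation antigen Ki-67, from 10.9 and 10.9 to 18.8 and 20.1 CPM (0.84 ± 0.15). In each of these genes the KO libraries lay above the WT libraries. Not all mitotic genes moved to this extent. *Cdk1* had a log2 fold change of 0.28 ± 0.20 and *Ccna2*, cyclin A2, of 0.51 ± 0.13, and neither was called. The members with the most reads were not called either, with -0.16 ± 0.05 for *Tubb5*, -0.34 ± 0.05 for *Smc4*, 0.55 ± 0.07 for *Racgap1* and 0.30 ± 0.07 for *Smc2*. In spleen the median of the same list was 0.08, and 5 members were higher and 10 lower in KO, against 9.26% and 14.6% of all genes. The difference between the KO effects in lung and spleen was called for 37 members, 36 of them higher in lung, against 24.9% of all genes with a higher and 18.4% with a lower effect in lung (43.3% in all). Over all genes, 178 called genes had no reads in both WT lung libraries and 26 had none in both KO lung libraries. The KO libraries also held more symbols with a read, 16533 and 17268, against 15949 and 15232 in WT. This was so although WT library 1 had the most reads, 8444054. The part of this difference in the genes without reads in WT was not tested. Some of the B cell, class II and epithelial markers described above were called higher in the same KO libraries. *Ighm*, *Scgb1a1* and *Scgb3a2* stood lower there, as did the summed B cell level. The part of such cells was not tested.

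Mitotic promoters often hold a CHR element and CCAAT boxes, which the MuvB complexes and NF-Y bind. In the 250 bases before the RefSeq start (GRCm38.p6), the CHR letters TTTGAA were found on either strand in 19 of the 47 mitosis and G2/M genes with a promoter (40.4%) and in 10.9% of 8670 genes tested. The CCAAT letters were in 35 of the 47 (74.5%) and in 36.8% of genes tested. Over all 32851 promoters of this length the shares were 15.99% and 33.8%. The promoters of 3 of the genes without reads in WT are shown, since they hold these letters (chosen after the search), with CHR and CCAAT letters of either strand in capitals.
Ube2c, chr2:164769679-164769928, plus strand: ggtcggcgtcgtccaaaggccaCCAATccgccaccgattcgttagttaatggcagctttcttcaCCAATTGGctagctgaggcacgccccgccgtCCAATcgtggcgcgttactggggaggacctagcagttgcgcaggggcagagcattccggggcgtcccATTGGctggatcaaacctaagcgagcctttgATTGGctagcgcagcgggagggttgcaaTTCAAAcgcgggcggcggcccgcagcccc
Ccnb1, chr13:100786487-100786736, minus strand: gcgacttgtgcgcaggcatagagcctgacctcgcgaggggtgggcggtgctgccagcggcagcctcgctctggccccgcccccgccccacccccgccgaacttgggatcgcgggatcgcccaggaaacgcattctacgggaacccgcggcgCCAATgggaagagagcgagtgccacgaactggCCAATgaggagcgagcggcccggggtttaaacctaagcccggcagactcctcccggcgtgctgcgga
Bub1, chr2:127831860-127832109, minus strand: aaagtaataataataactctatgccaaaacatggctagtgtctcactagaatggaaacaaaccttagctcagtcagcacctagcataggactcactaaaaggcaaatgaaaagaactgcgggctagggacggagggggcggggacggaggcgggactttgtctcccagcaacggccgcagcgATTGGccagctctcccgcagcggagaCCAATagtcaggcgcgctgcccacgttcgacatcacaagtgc
*Ube2c* has 6 CCAAT matches, counting both strands, and 1 CHR match. *Ccnb1* and *Bub1* have 2 CCAAT matches each. *Nusap1* and *Anln* have neither in this window.

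**Figure D2:**
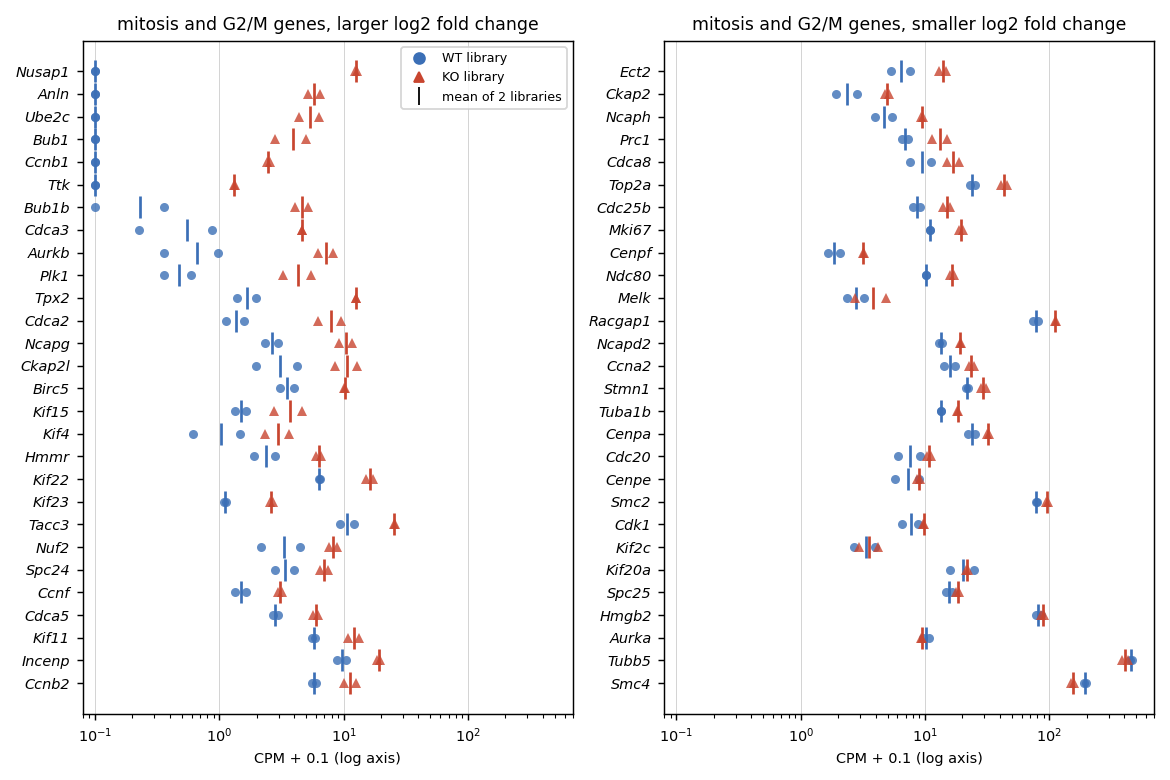
Levels in CPM plus 0.1 on a log axis of the 56 mitosis and G2/M genes tested, ordered by log2 fold change from top left to bottom right. Circles are WT lung libraries, triangles KO lung libraries and ticks means, and the 6 genes at the top left have no reads in WT while *Tubb5* and *Smc4* at the bottom right are at or below their WT level in KO.

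The DNA replication list, which covers the licensing and synthesis machinery of S phase, had fewer calls. Of 57 tested members 14 rose and 3 fell, and the median was 0.15. *Rrm2*, the limiting subunit of ribonucleotide reductase, was counted at 12.2 and 14.5 CPM in WT and 45.6 and 45.3 CPM in KO and rose by 1.81 ± 0.12. *Cdt1*, the licensing factor, stood at 11.8 and 13.7 CPM in WT and 32.1 and 32.7 CPM in KO. *Chaf1a*, a subunit of the histone chaperone CAF-1, rose by 3.19 ± 0.47, from about 1 CPM or less. *Clspn* had 1 read in WT in all and rose too, and *E2f1* had none and was at least 5.19-fold higher. *E2f2*, *Mcm10* and *Cdc7* fell, with -1.04 ± 0.26, -1.65 ± 0.47 and -0.59 ± 0.15, and *Cdc7* was not called with the GC offset. *Mcm6*, a subunit of the replicative helicase, was not called at 0.34 ± 0.05. Among 23 tested G1 cyclins and kinases, cell-cycle inhibitors and p53 targets, 4 rose and 0 fell. *Ccnd3*, cyclin D3, which lymphocytes use to leave G1, rose from 166 and 171 to 329.5 and 334 CPM (0.98 ± 0.05), and the CDK inhibitor gene *Cdkn1a* by 0.62 ± 0.13, which the GC offset took below the threshold. Cyclin D2 had 0.28 ± 0.03 (*Ccnd2*) and was not called. The GC offset gave 2 higher and 0 lower in the G1 and p53 list. Called with an assumed coefficient of variation of 0.2 were 8 higher and 2 lower in the DNA replication list and 1 higher and 0 lower in the G1 and p53 list. Calls lost when a library was left out, with the log2 fold change that was left, were *Cdkn1a* (0.52) without KO library 1, *Cdc7* (-0.55) and *Mcm10* (-1.33) without KO library 2, *Mcm10* (-1.50) without WT library 1, and *Cdc7* (-0.54) and *Cdkn1a* (0.43) without WT library 2.

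Immediate early genes, which cells switch on within minutes of a receptor signal without new protein, formed the next list. Of 35 members outside the AP-1 family 16 rose and 0 fell, with a median of 0.40. With the GC offset 9 rose and 1 fell, so this count moved with the GC offset. *Nr4a1* is described above. *Dusp1*, a phosphatase that switches off MAP kinases, was counted at 283 and 306 CPM in WT and 594 and 596 CPM in KO, with the KO libraries nearly equal and above WT (1.02 ± 0.05). *Mafk*, a small MAF factor, rose by 1.14 ± 0.16. *Ier3*, *Sik1* and *Cyr61* also rose, all from less than 1 CPM, and *Cyr61* was not called with the GC offset. The members with the most reads, *Btg1*, *Klf6* and *Btg2*, were above WT in both KO libraries by less than 1.5-fold, with 0.19 ± 0.04, 0.17 ± 0.04 and 0.22 ± 0.04, and were not called. Among 13 AP-1 genes 5 rose and 1 fell. Besides *Junb*, *Jund* and *Fos*, *Jun* was counted at 16.7 and 16.3 CPM in WT and 46.1 and 46.8 CPM in KO (1.49 ± 0.12) and *Mafg* at 5.59 and 5.18 CPM in WT and 16.8 and 15.4 CPM in KO (1.55 ± 0.20). *Atf1*, a CREB family factor, fell from 38.4 and 37.3 to 17.0 and 21.4 CPM (-0.96 ± 0.12). *Batf*, which partners JUN proteins in lymphocytes, was not called at -0.07 ± 0.09. An assumed coefficient of variation of 0.2 gave 7 higher and 0 lower in the immediate early list. The direction turned for *Batf* (0.021 with library totals). Not called when a library was left out, with the value then left, were *Cyr61* (1.43) and *Sik1* (1.46) without KO library 1, *Sik1* (1.90) without WT library 1, and *Cyr61* (1.09) and *Ier3* (1.504) without WT library 2.

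Cyclic AMP signals act on many immediate early genes through the letters TGACG. They were found on either strand within 250 bases before the start of 21 of 40 immediate early and AP-1 genes with a promoter (52.5%), of 28.8% of genes tested and of 17.8% of all promoters. The promoter of *Nr4a1* is shown, as the gene of this list that rose most above 20 CPM outside the AP-1 family. The letters TGACG, on either strand, are in capitals.
Nr4a1, chr15:101266596-101266845, plus strand: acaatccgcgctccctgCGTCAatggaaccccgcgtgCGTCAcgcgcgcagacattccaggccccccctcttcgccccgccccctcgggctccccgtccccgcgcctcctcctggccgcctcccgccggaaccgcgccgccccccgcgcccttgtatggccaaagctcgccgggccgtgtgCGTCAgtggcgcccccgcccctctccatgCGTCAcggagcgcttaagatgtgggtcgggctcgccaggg
There are 4 such matches, and no CArG box, the site of the serum response factor, in this window.

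All called genes of the NF-kB pathway rose. Of 32 tested members 10 rose and 0 fell, and with the GC offset 8 rose. *Rela*, the p65 subunit, was counted at 37.0 and 40.7 CPM in WT and 74.7 and 78.0 CPM in KO (0.999 ± 0.09). The kinases *Map3k14*, known as NIK, and *Ikbke* rose by 1.11 ± 0.24 and 1.05 ± 0.20, and *Traf3*, which holds NIK low, by 1.02 ± 0.19. *Nfkbid*, an atypical IkB protein, rose by 1.16 ± 0.19. *Nfkbia*, the classical inhibitor and a target of the pathway, stood at 164 and 163 CPM in WT and 238 and 244 CPM in KO, above WT in both KO libraries but under 1.5-fold (0.56 ± 0.05). *Nfkb1* was not called at -0.07 ± 0.06. Of 35 MAP kinase and feedback genes 9 rose and 2 fell. *Dusp10*, which acts on p38 and JNK, rose by 1.25 ± 0.16, and the kinase genes *Map2k4* and *Map2k3*, which lie upstream of them, by 0.90 ± 0.08 and 0.77 ± 0.10. *Map3k1* fell from 600.2 and 596 to 359 and 361 CPM (-0.73 ± 0.04). Of 26 calcium and NFAT genes 3 rose and 1 fell. Among them *Orai1*, the pore of the store-operated calcium channel, was counted at 12.8 and 13.0 CPM in WT and 29.5 and 30.7 CPM in KO, and *Camk4*, a calmodulin kinase, rose by 1.69 ± 0.17. The calmodulin gene *Calm2* lay below WT by less than 1.5-fold, with -0.46 ± 0.04. Called with an assumed coefficient of variation of 0.2 were 6 higher and 0 lower in the NF-kB list, 3 higher and 0 lower in the MAP kinase list and 2 higher and 0 lower in the calcium list. The sign of the log2 fold change turned for *Nfkb1* (0.027 with library totals).

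The IL-2 and IL-15 receptor list holds the receptor chains, the JAK and STAT proteins, their SOCS inhibitors and the mTOR branch. Of 28 members 11 rose and 1 fell, and the median was 0.20. With the GC offset 8 rose, and 8 did with an assumed coefficient of variation of 0.2. Known targets of STAT5 were among those that rose. Beside *Socs1*, *Pim2*, a survival kinase, was counted at 22.6 and 24.9 CPM in WT and 69.8 and 64.4 CPM in KO (1.51 ± 0.10). *Socs3* stood at 1.74 and 1.55 CPM in WT and 5.32 and 5.17 CPM in KO and *Cish*, which restrains IL-15 signals in NK cells, at 3.11 and 1.81 CPM in WT and 5.12 and 7.21 CPM in KO. In all 4 genes both KO libraries were above both WT libraries. The next 3 genes were picked after their values were seen. *Jak3*, the kinase bound to the common gamma chain, rose by 0.96 ± 0.22 but was not called with the GC offset. *Il15ra*, which presents IL-15 to neighbouring cells, rose by 1.02 ± 0.17, and *Rptor*, which encodes the mTOR partner RAPTOR, by 1.09 ± 0.16. *Il2rb* rose by 1.21 ± 0.04. The common gamma chain gene *Il2rg* stood lower at 2584 and 2583 CPM in WT and 1926 and 1919 CPM in KO, but not by 1.5-fold (-0.43 ± 0.03). *Jak1* and *Stat3* were not called, at 0.28 ± 0.03 and -0.03 ± 0.04. *Mtor* fell from 26.4 and 23.8 to 14.9 and 13.6 CPM (-0.85 ± 0.15). The direction turned for *Stat3* (0.065 with library totals). *Cish* was not called without KO library 2 (0.93).

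The KO effect on these signalling genes was different in spleen. *Socs1* had a log2 fold change of -1.85 there, and the difference between the organs was 4.01 ± 0.21 (edgeR adjusted p = 2.0e-18). For *Nr4a1* the spleen value was -2.22 and the difference 4.12 ± 0.22, for *Dusp1* -2.13 and 3.15 ± 0.15, and for *Pim2* -0.57 and 2.08 ± 0.12, and each of these differences was called. The difference was called, with the higher effect in lung, for 13 of 28 IL-2 and IL-15 genes, 20 of 35 immediate early genes and 13 of 32 NF-kB genes, against 24.9% of all genes tested. Opposite signs in the organs were not limited to signalling lists. The median was -0.62 in lung and 0.36 in spleen for mitochondrially encoded genes and -0.37 and 0.45 for Ly49 genes. For glucocorticoid-induced genes it was 0.56 and -0.47. Other lists had the same sign in both organs, such as heat shock genes with 0.18 and 0.16.

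**Figure D3:**
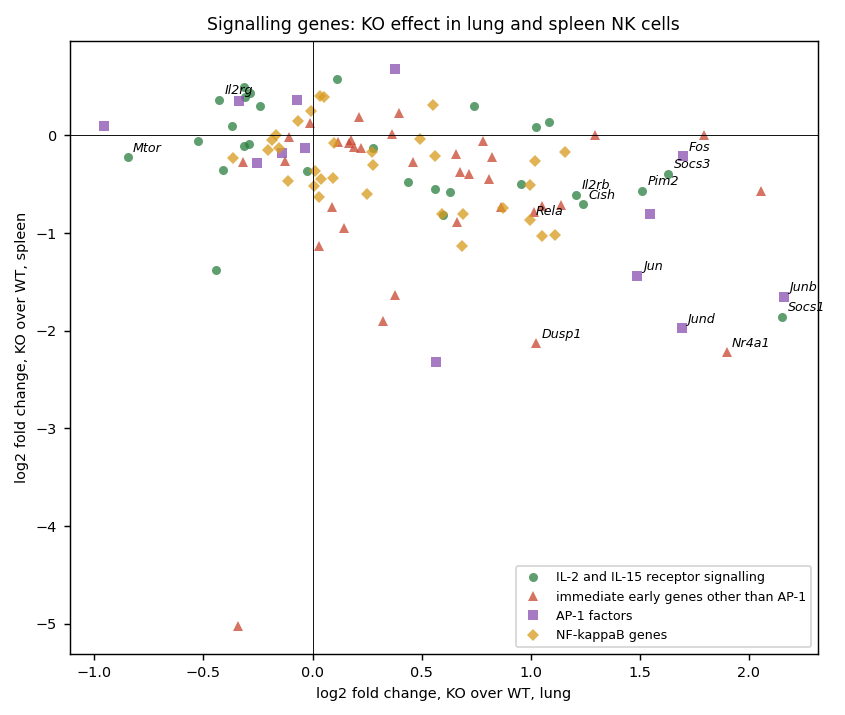
Log2 fold change of KO over WT in lung (horizontal) and in spleen (vertical) for tested members of the IL-2 and IL-15, immediate early, AP-1 and NF-kB lists, each point 1 gene from 2 libraries per group. The named genes at the lower right, such as *Socs1*, *Nr4a1* and *Jund*, lie above 0 in lung and below 0 in spleen.

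Of 25 other cytokine receptor and JAK-STAT genes 6 rose and 1 fell. *Il7r*, described above, was the one that fell. *Il12rb1*, a chain of the IL-12 receptor that drives interferon gamma in NK cells, was counted at 6.09 and 6.22 CPM in WT and 13.3 and 12.7 CPM in KO, and *Il4ra* at 8.21 and 5.96 CPM in WT and 14.3 and 16.2 CPM in KO. *Ifnar1*, a chain of the type I interferon receptor, rose from 66.8 and 70.5 to 118 and 120.0 CPM (0.81 ± 0.07), and *Stat6* by 0.75 ± 0.07, which the GC offset took below the threshold. The receptor genes *Ifngr1* and *Il18rap* were not called, at 0.19 ± 0.03 and -0.11 ± 0.04. Among 11 secreted cytokines, *Osm*, oncostatin M, rose from 18.8 and 22.5 to 57.7 and 53.7 CPM (1.47 ± 0.11) and *Ifng*, interferon gamma, from 92.7 and 94.3 to 185 and 181 CPM (0.97 ± 0.06). *Penk*, which encodes enkephalin precursors, fell from 6.34 and 4.66 to 2.05 and 2.18 CPM. *Spp1*, osteopontin, and *Ltb*, lymphotoxin beta, were not called, with 0.26 ± 0.06 and 0.23 ± 0.08. Called with an assumed coefficient of variation of 0.2 were 2 higher and 1 lower in the cytokine receptor list. The sign of the log2 fold change turned for *Ltb* (-0.21 with the GC offset). *Penk* was not called without WT library 1 (-1.14).

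Among CCL5 receptors and related chemokines, 3 of 9 tested genes rose and only *Ccl5* fell. *Ccl9* and *Ccl6*, which lie in the same chemokine cluster of chromosome 11, rose. *Ccl9* was counted at 34.9 and 36.5 CPM in WT and 98.2 and 95.1 CPM in KO (1.44 ± 0.08) and *Ccl6* at 3.11 and 1.81 CPM in WT and 5.94 and 7.07 CPM in KO (1.30 ± 0.29). *Cxcl10*, induced by interferon, had no reads in WT and was at least 5.19-fold higher, at about 1 CPM. The inflammatory chemokines MIP-1 beta and MIP-1 alpha, which NK cells also make, were not called. *Ccl4* stood at 889.9 and 828 CPM in WT and 1029 and 1056 CPM in KO and *Ccl3* at 469 and 434 CPM in WT and 414 and 431 CPM in KO, with 0.27 ± 0.04 and -0.10 ± 0.05.

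Chemotactic receptors, which steer NK cells out of vessels and lymphoid organs, showed changes in both directions. Of 27 tested members 10 rose and 3 fell. The sphingosine phosphate receptor genes *S1pr5* and *S1pr4* rose together. S1PR5 lets NK cells leave bone marrow and lymph nodes. *S1pr5* was counted at 128 and 132 CPM in WT and 261 and 262 CPM in KO and *S1pr4* at 39.3 and 39.6 CPM in WT and 89.7 and 89.8 CPM in KO, with 1.02 ± 0.05 and 1.19 ± 0.08. *Cx3cr1*, the fractalkine receptor of mature NK cells, rose by 0.84 ± 0.06. *Ccr7*, which guides cells to lymph nodes, rose by 2.76 ± 0.54 from under 1 CPM, while *Cxcr5* and *Ccr8* had no reads in WT and at most 9 in a KO library. In contrast *Cxcr6*, the receptor of liver- and lung-resident lymphocytes, fell from 33.7 and 30.6 to 19.0 and 18.8 CPM (-0.79 ± 0.12), *Cxcr4*, which holds cells in the bone marrow, from 14.05 and 11.4 to 6.35 and 7.75 CPM (-0.87 ± 0.19), and *Gpr34* from 11.8 and 11.9 to 3.27 and 2.72 CPM (-2.003 ± 0.23). *Ccr2*, the monocyte chemokine receptor gene, was not called at 0.11 ± 0.04. In the RGS, Gi and arrestin list, whose products carry or shut off the signal of these receptors, 5 of 24 rose and 2 fell, and with the GC offset 1 rose. *Rgs18* fell from 77.5 and 72.8 to 37.3 and 33.2 CPM (-1.12 ± 0.09). *Rgs1* was not called at 0.32 ± 0.04, but was with the GC offset. With an assumed coefficient of variation of 0.2 there were 0 higher and 1 lower in the RGS list. *Ccr8* was not called without KO library 1 (4.89).

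Most NK receptor genes of the complex on chromosome 6 had a negative log2 fold change, and most were not called. Of 12 Ly49 genes 3 fell (25%, against 10.4% of all genes) and 0 rose. The log2 fold change was negative in 11 of the 12, and the median was -0.37. The pseudogene *Klra13-ps* was counted at 1788 and 1746 CPM in WT and 977 and 999.6 CPM in KO and *Klra10* at 36.8 and 33.9 CPM in WT and 18.2 and 17.0 CPM in KO, with -0.84 ± 0.04 and -1.03 ± 0.20. *Klra17* fell from 3.23 and 1.81 to 0.819 and 0.680 CPM. *Klra9*, *Klra7*, *Klra4* and *Klra8*, at 648 CPM or more in each library, had -0.56 ± 0.04, -0.28 ± 0.04, -0.30 ± 0.04 and -0.17 ± 0.04 and were not called. Ly49 genes are near-identical copies, so reads may be split between them, and single values are uncertain. With the GC offset the median was -0.14. Among 16 tested NKG2, NKR-P1, other Klr and Clec2 genes 15 had a negative log2 fold change. Only *Clec2d* fell, which encodes a ligand and not a receptor, and none rose. The median was -0.33, or -0.18 with the GC offset. *Klrb1c*, which encodes the sorting antigen NK1.1, was counted at 4036 and 4045 CPM in WT and 3305 and 3310.0 CPM in KO, and *Klrk1*, which encodes NKG2D, at 3217 and 3136 CPM in WT and 2754 and 2713 CPM in KO. Their log2 fold changes were -0.29 ± 0.03 and -0.22 ± 0.03, with KO below WT in each library, though not by 1.5-fold. The sign of the log2 fold change turned for *Klra8* (0.028 with the GC offset) and *Klrk1* (0.028 with the GC offset). *Klra17* was not called without KO library 2 (-1.73).

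Of 35 genes of activating receptors, adaptors and proximal kinases 4 rose and 0 fell. *Plcg2* and *Zap70*, which relay signals from ITAM-bearing receptors, were counted at 76.7 and 75.9 CPM in WT and 128 and 134 CPM in KO (*Plcg2*) and 91.5 and 87.8 CPM in WT and 134 and 142 CPM in KO (*Zap70*). In each the KO libraries lay above WT, and *Zap70* was not called with the GC offset. *Plcg1* rose by 2.20 ± 0.46 from about 1 CPM. The activating receptor gene *Ncr1*, which encodes NKp46, and the adaptor genes *Fcer1g* and *Tyrobp* were not called, at -0.15 ± 0.03, -0.22 ± 0.04 and 0.00 ± 0.04. In the SLAM family *Slamf6* rose from 5.22 and 5.18 to 16.2 and 20.3 CPM (1.83 ± 0.19) and *Sh2d1b2*, which encodes the adaptor ERT, fell by 2.01 ± 0.54. *Cd244*, which encodes 2B4, was not called at -0.28 ± 0.04. Checkpoint and nectin-binding receptors went both ways, with 5 of 19 higher and 3 lower. *Lag3* and *Havcr2*, the gene of TIM-3, rose by 1.72 ± 0.35 and 3.11 ± 0.52 from low levels. *Ctla4* had no reads in WT and 14 and 23 in KO. *Cd226*, the activating receptor DNAM-1, fell from 109 and 97.1 to 61.2 and 67.1 CPM (-0.69 ± 0.07), though not with the GC offset, and *Cd200r1* from 10.3 and 10.6 to 3.27 and 3.67 CPM (-1.57 ± 0.24). *Tigit* and *Cd96*, which compete with DNAM-1 for ligands, were not called, at 0.46 ± 0.06 and -0.10 ± 0.05. In the TNF receptor list *Tnfrsf13b*, which encodes TACI, a receptor best known from B cells, rose by 2.07 ± 0.28, and *Tnfsf4*, which encodes the OX40 ligand, fell from 9.20 and 6.48 to 5.12 and 4.63 CPM. They were the 2 called of 11 tested genes. An assumed coefficient of variation of 0.2 gave 1 higher and 0 lower in the adaptor list. The direction turned for *Tyrobp* (-0.19 with the GC offset). Leaving out a library ended the call, with the log2 fold change then left in parentheses, for *Tnfsf4* (-0.69) and *Zap70* (0.57) without KO library 2, and *Lag3* (0.90), *Sh2d1b2* (-1.84) and *Tnfsf4* (-0.43) without WT library 1.

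**Figure D4:**
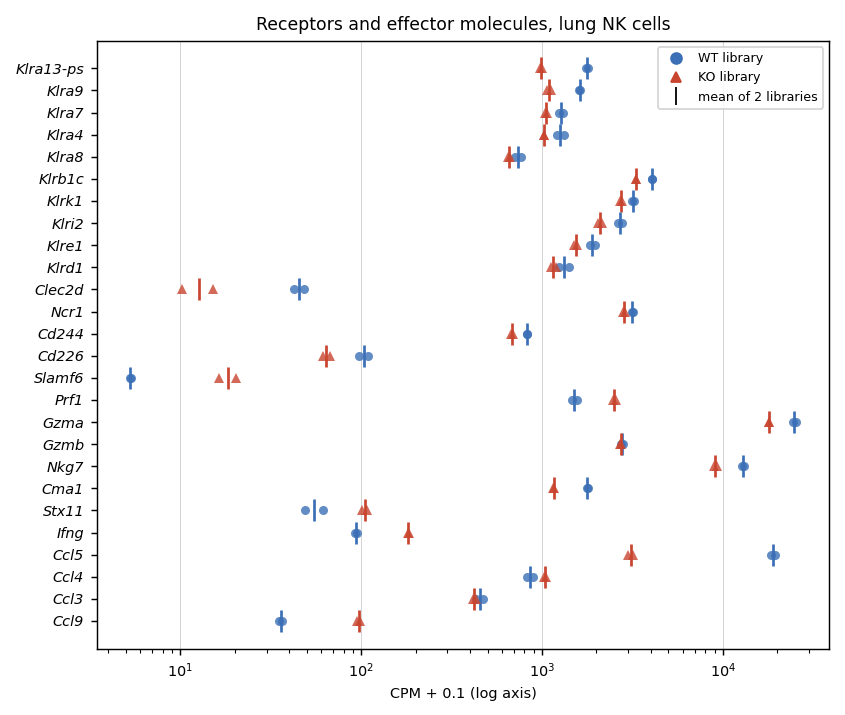
Levels in CPM plus 0.1 on a log axis of 26 receptor, granule, cytokine and chemokine genes in lung NK cells. Circles are WT libraries, triangles KO libraries and ticks means, and *Ccl5*, *Clec2d* and *Slamf6* are set apart widely while *Klrb1c*, *Klrk1*, *Ncr1* and *Gzmb* differ by less than 1.5-fold.

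Cytotoxic granule genes were mostly outside the calls. Of 25 tested members 3 rose and 1 fell. *Stx11*, which encodes the syntaxin that perforin release needs, was counted at 61.2 and 48.7 CPM in WT and 108 and 101 CPM in KO, and *Prf1*, perforin, at 1463 and 1556 CPM in WT and 2477 and 2554 CPM in KO. Both rose, *Prf1* not with the GC offset. *Gzmk* rose by 0.85 ± 0.19. *Cma1*, mast cell chymase, which mouse NK cells also transcribe, fell from 1786 and 1773 to 1154 and 1168 CPM (-0.62 ± 0.04). *Gzma*, at 25399 and 24265 CPM in WT and 17961 and 18039 CPM in KO, and *Nkg7*, a granule membrane protein, at 13056 and 12811 CPM in WT and 8889 and 9285 CPM in KO, were lower in both KO libraries by less than 1.5-fold, and *Nkg7* was called with the GC offset. *Gzmb* was not called at -0.03 ± 0.03. Of 18 genes of death ligands and extrinsic apoptosis 2 rose and 0 fell. *Casp9*, which encodes caspase 9, rose from 13.7 and 15.3 to 22.1 and 23.7 CPM and *Tnfrsf1a*, which encodes a TNF receptor, from 16.04 and 19.4 to 28.7 and 26.1 CPM, neither with the GC offset. *Fasl* stood at 1463 and 1447 CPM in WT and 1148 and 1167 CPM in KO and was not called (-0.33 ± 0.04). In the BCL2 family 5 of 16 rose and 2 fell. *Bcl2l1*, which encodes BCL-XL, rose from 51.3 and 56.5 to 91.7 and 91.0 CPM and *Bcl2l11*, which encodes the death-promoting BIM, from 61.4 and 61.7 to 89.4 and 96.9 CPM. *Bmf* had no reads in WT and was at least 10.7-fold higher. *Mcl1*, on which NK cells depend for survival under IL-15, fell from 169.7 and 164 to 105 and 114 CPM (-0.61 ± 0.06). *Bcl2* was not called at 0.33 ± 0.04. With an assumed coefficient of variation of 0.2 there were 1 higher and 0 lower in the granule list and 2 higher and 1 lower in the BCL2 list. The log2 fold change turned sign for *Gzmb* (0.062 with library totals, 0.020 with the GC offset). Calls lost when a library was left out, with the log2 fold change that was left, were *Mcl1* (-0.55) without KO library 1, *Bcl2l11* (0.54) without KO library 2, and *Casp9* (0.58) and *Tnfrsf1a* (0.47) without WT library 1.

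NK lineage transcription factors were called in both directions, at shares not above the background. Of 41 tested members 5 rose (12.2%) and 4 fell (9.76%), against 16.3% and 10.4% of all genes. *Id3* and *Ahr*, the aryl hydrocarbon receptor, rose from low levels, *Ahr* from 3.85 and 3.37 to 16.6 and 18.6 CPM (2.26 ± 0.21) and *Id3* from 2.24 and 1.55 to 11.7 and 8.84 CPM (2.31 ± 0.30). *Klf2*, which keeps lymphocytes quiescent and controls their exit from tissue, rose by 1.21 ± 0.05, and *Tbx21* by 1.13 ± 0.04. *Prdm1*, which encodes BLIMP-1, fell from 31.6 and 33.7 to 19.0 and 16.9 CPM (-0.86 ± 0.12), *Ikzf2*, which encodes HELIOS, from 19.6 and 23.6 to 11.3 and 12.4 CPM (-0.82 ± 0.15), and *Tox* from 128 and 126 to 78.0 and 84.5 CPM (-0.63 ± 0.07), the last not with the GC offset. *Irf4* fell by 2.48 ± 0.61 to under 1 CPM. *Ets1*, *Id2* and *Irf8* were not called, at -0.46 ± 0.04, -0.27 ± 0.04 and 0.37 ± 0.04. Of the 22 tested RUNX, SATB1, cohesin and CTCF genes 0 rose and 3 fell. RUNX proteins bind enhancers of NK genes, and cohesin and CTCF shape chromatin loops. *Ctcf* was counted at 163 and 169 CPM in WT and 95.2 and 96.5 CPM in KO, *Esco1*, a cohesin acetyltransferase, at 252 and 260.3 CPM in WT and 163 and 157 CPM in KO, and *Wapl*, which releases cohesin, at 317 and 306 CPM in WT and 206 and 201 CPM in KO. In all 3 the KO libraries lay below WT, and with the GC offset only *Ctcf* was called (-0.83). *Cbfb*, the partner of the RUNX proteins, was not called at -0.05 ± 0.05. In the chromatin modifier list, 2 of 70 rose and 6 fell, among them *Hdac5* (-1.30 ± 0.22), *Kdm1a*, the demethylase LSD1 (-0.97 ± 0.14), and *Tet2* (-0.86 ± 0.11). Called with an assumed coefficient of variation of 0.2 were 4 higher and 1 lower in the transcription factor list, 0 higher and 0 lower in the RUNX and cohesin list and 0 higher and 3 lower in the chromatin list. The sign of the log2 fold change turned for *Cbfb* (0.046 with library totals, 0.075 with the GC offset). *Tox* was not called without KO library 1 (-0.58).

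Genes that mark tissue-resident or immature cells were set beside those of mature circulating NK cells. Of 21 resident and immature genes 1 rose, *Emb*, and 3 fell, *Il7r*, *Cxcr6* and *Ckb*. The activation and residency marker *Cd69* was not called at 0.15 ± 0.06. *Itgae*, which encodes CD103, the integrin that binds epithelium, is in the integrin list and fell from 7.09 and 5.70 to 3.48 and 2.72 CPM (-1.12 ± 0.27). Of 26 mature NK genes 4 rose, *Klf2*, *S1pr5*, *Cx3cr1* and *Prf1*, and 1 fell, *Cma1*. In the resident list 4.76% rose and 14.3% fell, and in the mature list 15.4% rose and 3.85% fell, against 16.3% and 10.4% of all genes. Among 32 integrin and adhesion genes 6 rose and 1 fell. *Fermt3*, kindlin-3, which activates integrins, rose from 95.1 and 101 to 168 and 179 CPM (0.84 ± 0.06), though not with the GC offset, and *Icam1* and *Thy1* by 0.79 ± 0.07 and 0.99 ± 0.08. *Itgb2*, which encodes the beta chain of LFA-1, stood at 2031 and 2159 CPM in WT and 2761 and 2789 CPM in KO and was not called (0.41 ± 0.04). In the TGF-beta list 4 of 20 rose and 2 fell, with *Smad1* at 1.09 ± 0.13, the betaglycan gene *Tgfbr3* at -1.92 ± 0.35 and the ubiquitin ligase gene *Smurf2* at -0.68 ± 0.11. An assumed coefficient of variation of 0.2 gave 0 higher and 1 lower in the resident list, 3 higher and 0 lower in the mature NK list, 2 higher and 0 lower in the integrin list and 1 higher and 1 lower in the TGF-beta list. Not called when a library was left out, with the value then left, were *Ckb* (-1.28) without KO library 1, and *Itgae* (-0.92) without WT library 1.

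Antigen presentation and interferon genes were called at shares below the background. Of 25 class I and peptide loading genes 3 rose and 2 fell. *Tap2*, a chain of the peptide transporter, was counted at 45.0 and 50.0 CPM in WT and 114 and 119 CPM in KO (1.33 ± 0.07). The class I heavy chain gene *H2-D1* rose from 2274 and 2355 to 3916 and 3945 CPM (0.76 ± 0.03), while *H2-K1* and *B2m* were not called, at 0.25 ± 0.03 and -0.02 ± 0.04. *Canx*, calnexin, fell by 0.65 ± 0.04, though not with the GC offset. Class I heavy chains are close copies, so their counts are uncertain. Of 61 interferon-stimulated genes 7 rose and 6 fell, with a median of 0.02. *Ifit1bl1* and *Ddx60* fell, with log2 fold changes of -1.14 ± 0.12 and -0.95 ± 0.17, and *Oas3* rose by 1.84 ± 0.50 from under 1 CPM. None of 10 GIMAP genes was called by edgeR, and 0 were by DESeq2 under the same rule. At an adjusted p under 0.05 with no fold minimum, 2 were higher and 6 lower in edgeR. Of all genes tested, 55.6% passed this limit. Of 6 Schlafen genes 2 fell, *Slfn1* and *Slfn3*, both at low level. With an assumed coefficient of variation of 0.2 there were 1 higher and 1 lower in the class I list, 4 higher and 2 lower in the interferon list and 0 higher and 1 lower in the Schlafen list. The log2 fold change turned sign for *B2m* (0.073 with library totals, 0.15 with the GC offset). Leaving out a library ended the call, with the log2 fold change then left in parentheses, for *Slfn3* (-0.88) without KO library 2, and *Slfn3* (-1.16) without WT library 1.

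Genes of the mitochondrion were described in 3 lists. Of 8 mitochondrially encoded genes 4 fell and 0 rose, with a median of -0.62. They encode core subunits of the respiratory chain. *mt-Cytb*, cytochrome b, was counted at 8233 and 7701 CPM in WT and 4791 and 4683 CPM in KO and *mt-Nd2*, of complex I, at 481 and 400.2 CPM in WT and 243 and 251 CPM in KO. *mt-Co1*, of complex IV, stood at 1798 and 1696 CPM in WT and 1268 and 1264 CPM in KO, lower in both KO libraries but not called (-0.47 ± 0.04). With the GC offset the median was -0.31 and 0 were called by edgeR. Without the offset 7 were lower at an adjusted p under 0.05 in edgeR with no fold minimum. Of all genes tested, 55.6% passed this limit in either direction. Their median GC content was 36.6%. The nuclear respiratory chain genes had a median nearer 0. Of 78 tested members 1 rose and 2 fell, with a median of -0.22, while 15 fell with the GC offset. *Atp5o*, a subunit of ATP synthase, fell from 380.4 and 359.6 to 232 and 229 CPM and *Ndufb8*, of complex I, from 292 and 275 to 173 and 186 CPM. Of 76 mitochondrial ribosome genes 2 rose and 11 fell, with a median of -0.28, and 17 fell with the GC offset. *Mrpl11* was counted at 66.9 and 65.0 CPM in WT and 32.1 and 31.2 CPM in KO and *Mrpl42* at 258 and 234 CPM in WT and 137 and 132 CPM in KO, with the KO libraries below WT in both. Cytosolic ribosomal protein genes had a median of 0.02, and 1 of 77 was called. In the proteasome list 2 of 41 rose and 2 fell, with a median of -0.19. Called with an assumed coefficient of variation of 0.2 were 0 higher and 1 lower in the mitochondrially encoded list, 0 higher and 0 lower in the nuclear respiratory list, 1 higher and 3 lower in the mitochondrial ribosome list, 0 higher and 0 lower in the cytosolic ribosomal list and 1 higher and 0 lower in the proteasome list.

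Metabolic genes were called in both directions. Of 29 glycolysis and hypoxia genes 7 rose and 3 fell. *Hif1a*, the hypoxia-inducible factor, was counted at 36.7 and 34.7 CPM in WT and 78.6 and 75.8 CPM in KO (1.10 ± 0.09) and *Pkm*, pyruvate kinase, at 188 and 183 CPM in WT and 352 and 326 CPM in KO (0.86 ± 0.05). *Eno1* and *Ldha*, which encode enolase and lactate dehydrogenase, were above WT by less than 1.5-fold, with 0.53 ± 0.04 and 0.30 ± 0.04. *Bnip3l*, a receptor for mitophagy, fell by 0.66 ± 0.05, though not with the GC offset. The amino acid transporter genes *Slc1a5* and *Slc7a5*, for glutamine and for leucine, rose, with *Slc1a5* at 76.2 and 74.1 CPM in WT and 198 and 179 CPM in KO and *Slc7a5* at 3.73 and 4.14 CPM in WT and 9.82 and 11.4 CPM in KO. *Myc*, which drives both, rose from 37.5 and 46.1 to 67.8 and 67.3 CPM (0.74 ± 0.09), though not with the GC offset. In this list of nutrient transporters 6 of 20 rose and 0 fell. Of 32 ATF4 targets and tRNA synthetase genes 11 rose and 1 fell. *Mthfd2*, of mitochondrial folate metabolism, was counted at 8.83 and 8.29 CPM in WT and 19.9 and 21.2 CPM in KO. The isoleucyl-tRNA synthetase gene *Iars* rose from 32.0 and 32.9 to 64.7 and 64.2 CPM, and *Aars* and *Mars* by 0.86 ± 0.10 and 0.83 ± 0.09. *Asns*, asparagine synthetase, had no reads in WT and was at least 9.73-fold higher. The synthetase genes *Nars* and *Eprs* were not called. In the sterol list 9 of 37 rose and 4 fell. *Stard4*, a sterol carrier, rose from 42.8 and 41.7 to 131 and 125 CPM (1.59 ± 0.07), *Fads1* and *Scd1*, desaturases of fatty acids, from low levels, by 3.57 ± 0.52 and 2.16 ± 0.41. The cholesterol export genes *Abca1* and *Abcg1* fell, with log2 fold changes of -0.71 ± 0.13 and -0.63 ± 0.04, the latter from 778 and 793 to 507 and 504 CPM. After the GC offset there were 3 higher and 0 lower in the nutrient transporter list and 6 higher and 1 lower in the ATF4 list. An assumed coefficient of variation of 0.2 gave 3 higher and 1 lower in the glycolysis list, 2 higher and 0 lower in the nutrient transporter list, 4 higher and 0 lower in the ATF4 list and 6 higher and 1 lower in the sterol list. The direction turned for *Eprs* (0.050 with library totals, 0.045 with the GC offset). *Myc* was not called without WT library 1 (0.54).

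Of 38 heat shock and chaperone genes 7 rose (18.4%) and 0 fell, against 16.3% and 10.4% of all genes. *Hspa1a*, the inducible HSP70, was counted at 0.373 and 0.777 CPM in WT and 5.12 and 7.35 CPM in KO, with *Bag3*, its cochaperone, at 1.37 and 0.518 CPM in WT and 4.09 and 6.12 CPM in KO. *Hsf1*, the factor that induces them, rose by 1.07 ± 0.11. The chaperone genes *Hspa8* and *Hsp90ab1* had 0.47 ± 0.04 and -0.36 ± 0.04 and were not called. Of 33 genes of the unfolded protein response 3 rose (9.09%) and 1 fell (3.03%). Of 22 redox and iron genes 3 rose (13.6%), *Gclm* most (1.09 ± 0.17). Among 17 glucocorticoid-induced genes 6 rose (35.3%) and 3 fell (17.6%). *Klf9* rose from 13.6 and 14.2 to 35.4 and 28.2 CPM (1.18 ± 0.14), whereas *Tsc22d3*, which encodes GILZ and is among the most sensitive of these genes, was not called (-0.02 ± 0.04), nor was *Fkbp5* (0.56 ± 0.06). Clock genes went both ways, with 6 of 17 higher (35.3%) and 2 lower (11.8%). *Per1* and *Per2* rose by 1.34 ± 0.33 and 1.21 ± 0.39, and *Per3* and *Tef* fell, with log2 fold changes of -0.99 ± 0.21 and -0.66 ± 0.13. Labels give no time of day for the libraries. Calls under the GC offset were 4 higher and 0 lower in the heat shock list and 1 higher and 0 lower in the redox list. With an assumed coefficient of variation of 0.2 there were 3 higher and 0 lower in the heat shock list, 1 higher and 0 lower in the unfolded protein list, 1 higher and 0 lower in the redox list, 4 higher and 1 lower in the glucocorticoid list and 3 higher and 1 lower in the clock list. The log2 fold change turned sign for *Tsc22d3* (0.068 with library totals). Calls lost when a library was left out, with the log2 fold change that was left, were *Tef* (-0.56) without KO library 1, *Per2* (0.92) without KO library 2, *Per1* (1.13) and *Tef* (-0.57) without WT library 1, and *Per2* (0.90) without WT library 2.

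In the lysosomal list 8 of 32 rose and 2 fell, and with the GC offset 3 rose and 4 fell. *Hexa* was counted at 25.4 and 26.9 CPM in WT and 51.2 and 53.5 CPM in KO and *Mcoln1*, a lysosomal calcium channel, at 13.4 and 12.4 CPM in WT and 28.2 and 25.3 CPM in KO. *Atp6v0d2*, a subunit of the proton pump best known from osteoclasts and macrophages, fell by 2.63 ± 0.38. Among the large lists with shares below the background, 6 of 75 actin genes rose and 4 fell, with *Rock1* at 426 and 395 CPM in WT and 190.4 and 194 CPM in KO and *Myo1g* at 61.0 and 62.7 CPM in WT and 112 and 114 CPM in KO. Of 64 splicing genes 3 rose and 4 fell, of 46 translation initiation genes 2 rose and 2 fell, and of 40 ribosome biogenesis genes 5 rose and 1 fell. *Rsrp1* (1.10 ± 0.04), *Eif3b* (0.87 ± 0.06) and *Bysl* (0.90 ± 0.07) were, among called members over 50 CPM in KO, those that rose most in each list. Not below the background were nuclear and snoRNA host transcripts, of which 4 of 22 rose (18.2%) and 3 fell (13.6%). *Malat1* was not called (-0.29 ± 0.04). The Zfp-named zinc finger genes were the largest list, with 268 tested. Of them 44 rose (16.4%) and 47 fell (17.5%), against 16.3% and 10.4% of all genes, and the median was -0.04. Among the Zfp genes *Zfp128* fell most, from 10.2 and 10.1 to 0.819 and 0.816 CPM. The GC offset gave 3 higher and 1 lower in the splicing list, 3 higher and 2 lower in the ribosome biogenesis list and 3 higher and 1 lower in the nuclear RNA list. Called with an assumed coefficient of variation of 0.2 were 3 higher and 0 lower in the lysosomal list, 3 higher and 1 lower in the actin list, 2 higher and 0 lower in the splicing list, 1 higher and 1 lower in the translation initiation list, 2 higher and 0 lower in the ribosome biogenesis list, 3 higher and 0 lower in the nuclear RNA list and 20 higher and 17 lower in the Zfp list.

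**Figure D5:**
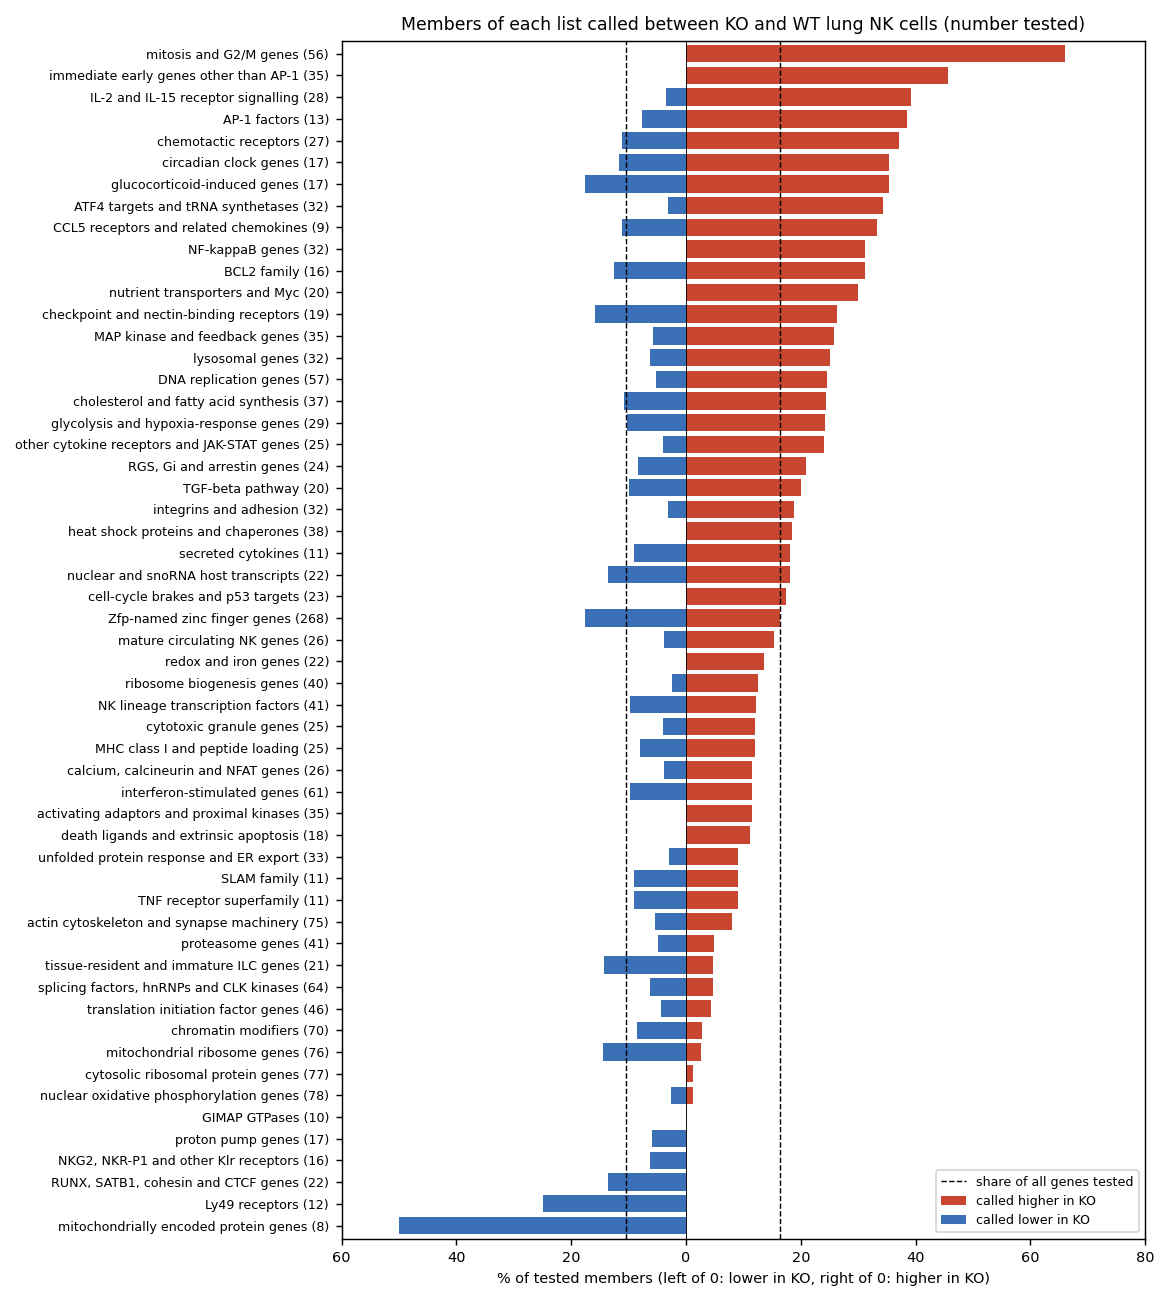
Share of tested members called higher (right of 0) or lower (left of 0) in KO lung NK cells for the lists with 8 or more tested members, the number tested in parentheses. Dashed lines mark the shares of all genes tested, 16.3% higher and 10.4% lower, and the mitosis list reaches 66.1% while cytosolic ribosomal protein, proteasome and GIMAP genes stay under the lines.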

How the data were processed

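The series holds 8 RNA-seq libraries of sorted NK cells with 50-base reads, 2 per genotype (WT, Ccl5ΔPE/ΔPE) and organ (lung, spleen). According to the submitters' processing notes, the authors aligned reads with HISAT2 2.1.0 to mm10 and counted them per gene with HTSeq 0.11.1. The strand setting and annotation release are not given in the sources used here. The deposited values are raw counts per gene, and the summary lines of the counter were left out. Counts of 12595 of 48321 symbols passed edgeR's filterByExpr. All 8 libraries were fitted with edgeR 4.0.16 (R 4.3.3, limma 3.58.1), with TMM scaling, 1 mean per group, the quasi-likelihood test and Benjamini-Hochberg adjustment, and the difference between organs was tested as the interaction. A gene was called at an adjusted p under 0.05 and a change of at least 1.5-fold. No p was adjusted over a list alone.

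Named were Ccl5, the 15 called genes with the largest change in each direction at a mean of 20 CPM or more in the higher group and with no overlap between KO and WT libraries, and from each gene list up to 5 called members in each direction and up to 4 uncalled members with the highest level. For lists of 60 or more genes, up to 3 were named each way. Exceptions are marked in the text, and a few genes are not reported here. The members and gene lists were chosen with earlier results of these data known. Gene positions are from GENCODE (GRCm38) and promoters from RefSeq (GRCm38.p6). In simulated data of the lung comparison with 12049 genes, of which 200 changed 2-fold, 99.5% of the changed genes were recovered. The changed genes were drawn only from well-counted genes, and the simulated spread was the one estimated from these libraries. The recovery therefore does not cover genes with few reads or a larger spread between animals. Alternatives covered scaling, filtering, DESeq2 1.42.0, an assumed spread between libraries, a GC offset, thresholds, a replicate block and leaving out each library.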

Additional observations from a re-analysis of the deposited data

Results flagged for a closer look

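The KO effect differed between lung and spleen in 5451 of the 12595 genes tested (43.3%), by the interaction test of edgeR. The difference, lung minus spleen on the log2 scale, was 4.01 for *Socs1*, 4.12 for *Nr4a1*, 3.15 for *Dusp1* and 2.08 for *Pim2*. *Socs1*, *Nr4a1* and *Dusp1* were called higher in KO in lung and lower in KO in spleen. Groups of 2 libraries are too small for a test of single outlying libraries.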

How the results depend on the processing

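The count of genes called between KO and WT in lung, 3368, was 2004 where each library had to hold 10 counts or more, 1557 where a coefficient of variation of 0.2 between libraries was assumed, 7000 with no fold minimum and 1707 with a minimum of 2-fold. DESeq2 called 2392. Leaving out a lung library gave 2712 to 3537, the lowest without WT library 1. Scaling by library totals called 3497, 2489 higher and 1008 lower, and shifted the median of all genes by 0.093. The count of genes whose KO effect differed between the organs, 5451, was 2017 with a coefficient of variation of 0.2 and 3126 with 2-fold, and 4826 to 5643 with a lung library left out. *Ccl5* was called under all 16 alternatives, at -2.66 to -2.56 with a library left out. For lung libraries of equal replicate number, deviations from the group means had a correlation of -0.0139 over 5103 genes (0.169 in spleen). This cannot decide whether they were paired, since the variance between libraries was only 1.46 times (WT) and 1.20 times (KO) that of counting. A fit with the replicate block called 3341 genes, of which 3245 were among the 3368. Of 204 called genes named in the text, 49 were not called with a coefficient of variation of 0.2, 19 not with the GC offset and 1, *Cyr61*, not with the block. The cause of these changes was not tested. Some uncalled genes changed sign. With library totals these were *B2m* (0.073), *Batf* (0.021), *Cbfb* (0.046), *Cd3e* (0.0048), *Eprs* (0.050), *Gzmb* (0.062), *Nfkb1* (0.027), *Stat3* (0.065) and *Tsc22d3* (0.068). With the GC offset alone, and with the offset and the replicate block, they were *B2m* (0.15, 0.16), *Cbfb* (0.075, 0.073), *Eprs* (0.045, 0.047), *Gzmb* (0.020, 0.020), *Klra8* (0.028, 0.037), *Klrk1* (0.028, 0.029), *Ltb* (-0.21, -0.20) and *Tyrobp* (-0.19, -0.19). *Tyrobp* was also at -0.0062 with RLE scaling, -0.00047 with upper-quartile scaling and -0.0054 with DESeq2. Leaving out each library in turn gave -0.091 to 0.052 for *B2m*, -0.23 to 0.012 for *Cd3e*, -0.068 to 0.0061 for *Tsc22d3* and -0.053 to 0.067 for *Tyrobp*. Low counts limit the mitosis genes, many of which had fewer than 10 reads in a WT library.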
